A study of Rattus norvegicus with 96 samples.

Results

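The ventral tegmental area (VTA) and the core of the nucleus accumbens (NAc core) of the same saline-treated rats were compared here. Their members were the libraries labelled saline and VTA or NAc core, joined by the rat's number and sex, which gave 15 pairs and 30 of the 96 libraries of the series. There were 7 male pairs and 8 female pairs. Male 3 formed no pair because only its NAc libraries were among the samples used, and it entered only the comparison of NAc core with NAc shell, while male 5 entered with its library R2. The study sequenced total RNA of 32 rats, taken from NAc shell as well as these regions, 16 of each sex, to describe sensitization to nicotine (NIC). All rats were F1 offspring of the inbred strains F344 and BN, from both directions of the cross, in early adulthood. The rats of this comparison received SAL, 1.0 ml/kg, once a day for 4 days, and tissue was taken on day 17 according to the labels. The other rats of the series received 0.4 mg/kg NIC on the same schedule. Tissue was dissected by hand and lysed whole, so each library mixes neurons, glia and vessels. In such tissue, fewer cells of a type and less RNA per cell cannot be told apart. Nothing in the labels says how many cells of each type a punch held, and each library came from 1 rat.

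The VTA is a midbrain region whose dopamine neurons make dopamine from tyrosine, load it into vesicles and release it, among other places, in the NAc. It also holds glutamate and GABA neurons, and myelinated tracts run through it. The NAc core is part of the ventral striatum: most of its neurons are GABA projection neurons of a direct class, which carry the D1 dopamine receptor and dynorphin, and an indirect class, which carry the D2 dopamine receptor, the adenosine receptor and enkephalin. VTA and NAc core are thus the origin and a target of the same dopamine pathway.

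Total estimated counts lay between 16066218 and 27736905 in VTA and between 15868529 and 23841019 in NAc core. They did not differ beyond the spread between pairs (mean log2 difference of the totals 0.07 ± 0.21 SD, n = 15 pairs, higher in VTA in 9 of 15, two-sided exact sign-flip permutation test, p = 0.234). CPM below is the count of a gene scaled to a common library size, with TMM factors, and a log2 difference is VTA minus NAc core from edgeR's quasi-likelihood fit with the rat as a block, with its standard error (SE). Adjusted p are Benjamini-Hochberg values over all 16348 genes tested. The prep batch was the same for both libraries of a rat. Among these pairs it was never shared between males and females, so sex and batch cannot be told apart. Gene symbols were known for 7954 of the 17637 identifiers, 45.1%, because they came only from the study's tables of genes. A list member without a symbol there could not be looked up, and counts for lists are therefore given as tested of listed.

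By Th and Drd1, all 30 libraries lay with their labelled region: Th was at 414 to 871 CPM in VTA and 0.757 to 3.33 CPM in NAc core, and Drd1 at 9.20 to 147 CPM in NAc core and 0.418 to 3.42 CPM in VTA. Several libraries stood apart within their region. NAc core of male 1 had Drd1 at 9.20, Adora2a at 11.2 and Ppp1r1b at 225 CPM, where the next lowest NAc core libraries had 45.9, 136 and 807 CPM. Its Tac1, at 13.5 CPM, lay within the VTA range and its Drd2, at 8.28 CPM, below every VTA library. In VTA, Ddn, a gene of forebrain dendrites, was at 63.4, 95.2, 397, 192 and 124 CPM in male 2, male 4, female 12, female 13 and female 15, and at 11.4 to 19.4 CPM in the other 10 rats. Icam5, another forebrain dendrite gene, was at 22.7 to 65.3 CPM in these 5 VTA libraries and 3.56 to 6.60 CPM in the others. VTA of female 16 had 851 CPM of Ttr, the main secreted protein of the choroid plexus, where the next highest VTA library had 5.47 CPM. Where leaving them out moved a named difference by over 1.5 times as a fold or ended its call, the value is also given without male 1, or without the 7 pairs of males 1, 2 and 4 and females 12, 13, 15 and 16, a choice made after the data were seen.

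**Figure D1:**
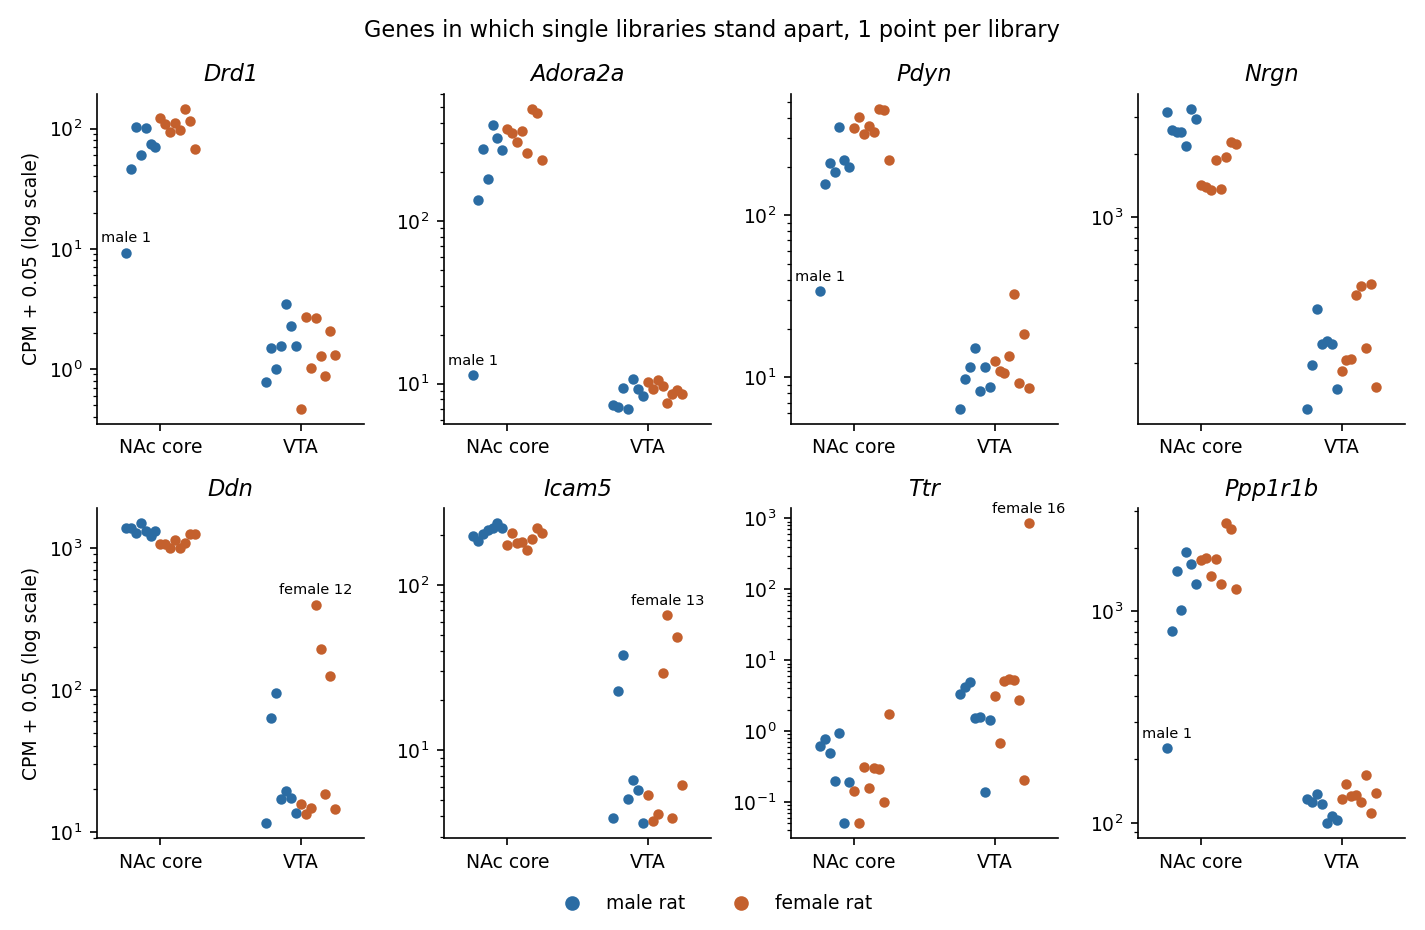
Level of 8 genes (CPM + 0.05, log scale) in each NAc core and VTA library of the 15 saline rats, 1 point per library, males blue and females orange. NAc core of male 1 lies below the other NAc core libraries in Drd1 (9.20 CPM), Adora2a (11.2) and Pdyn (33.8), and VTA of female 16 lies at 851 CPM of Ttr.

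The 2 regions differed at most genes. Of 16348 genes, 12451 had an adjusted p under 0.05 in edgeR (76.2% of those tested), 6315 higher in VTA (38.6%) and 6136 higher in NAc core (37.5%). The median difference over all genes was 0.01 and the median size 0.43 on the log2 scale, so a stricter test was used for counts: the difference had to be beyond 2-fold (edgeR's test against an interval of 1 on the log2 scale). That left 1992 genes (12.2%), 1089 higher in VTA (6.66%) and 903 higher in NAc core (5.52%). The shares of all genes given here are the background for the counts of list members below. Among these 1992 genes, 1670 differed in the same direction in all 15 pairs and 1956 in the mean of each of the 6 prep batches. The libraries of the 2 regions did not overlap in 1264 of them (among all tested genes, 21.5% did not overlap). Without male 1, 1902 of the 1992 stayed beyond 2-fold, and without the 7 pairs, 1651 did. Fitted in males alone and in females alone, 1991 had the same direction in both, though these genes were called on both sexes together.

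**Figure D2:**
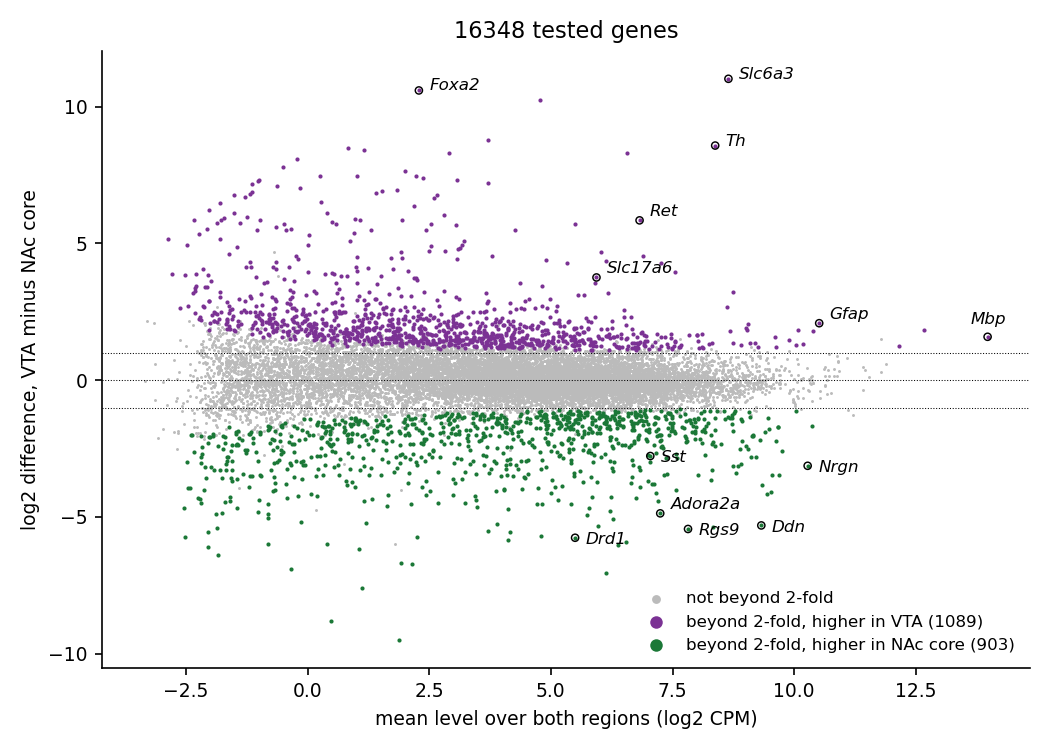
Log2 difference, VTA minus NAc core, against the mean level over both regions (log2 CPM) for the 16348 tested genes, 1 point per gene. Purple points are the 1089 genes beyond 2-fold and higher in VTA, green points the 903 higher in NAc core, and dotted lines mark no difference and 2-fold.

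Rises and falls were ranked among genes with a symbol, 1064 of the 1992, that had at least 5 CPM in the higher region and one direction in all 15 pairs, so larger differences of genes without a symbol are not named. Of the 10 largest rises so ranked, 3 were genes of dopamine synthesis and transport: Slc6a3, Th and Slc18a2. Slc6a3 (ENSRNOG00000017302, chromosome 1), the dopamine transporter that takes released dopamine back up, had the largest rise of them. Its lowest, median and highest VTA levels were 548, 792 and 1113 CPM, against 0, 0.362 and 0.909 CPM in NAc core. The lowest VTA library was thus far above the highest NAc core library, and the log2 difference was 11.03 (SE 0.18, adjusted p = 7.17e-18). Th (ENSRNOG00000020410, chromosome 1), the rate-limiting enzyme of dopamine synthesis, was at 414, 637 and 871 CPM in VTA and 0.757, 1.52 and 3.33 CPM in NAc core. Again no libraries overlapped (log2 difference 8.58, SE 0.19, adjusted p = 2.67e-16). Within the 6 prep batches the mean difference of Th lay between 8.11 and 9.39.

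The vesicular monoamine transporter Slc18a2 (ENSRNOG00000008890, chromosome 1), which loads dopamine into vesicles, was at 101, 196 and 252 CPM in VTA and 0, 0.140 and 2.32 CPM in NAc core (log2 difference 8.31, SE 0.36, adjusted p = 5.91e-13, and 7.67 without the 7 pairs). Its NAc core median was 0 CPM in males and 1.29 CPM in females. Ddc (ENSRNOG00000004327, chromosome 14), the decarboxylase that completes dopamine synthesis, was also present in NAc core, at 7.76, 9.70 and 12.3 CPM. In VTA it was at 152, 222 and 292 CPM, without overlap (log2 difference 4.53, SE 0.10, adjusted p = 2.67e-16). In the list of dopamine synthesis and transport, 7 of 12 members were tested. All 7 were higher in VTA, 6 of them beyond 2-fold (all genes, 38.6% and 6.66%), and the median was 4.84 (all genes, 0.01).

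The 250 bases before the annotated starts of Th, Slc18a2 and Slc6a3, whose products make, store and take up dopamine, are shown beside those of Pdyn, a gene with one of the larger falls. They come from RefSeq on build GRCr8, not the build of the counts, and are written 5′ to 3′ with any match to 3 motifs in capitals.
Th, chr1:207508219-207508468, minus strand: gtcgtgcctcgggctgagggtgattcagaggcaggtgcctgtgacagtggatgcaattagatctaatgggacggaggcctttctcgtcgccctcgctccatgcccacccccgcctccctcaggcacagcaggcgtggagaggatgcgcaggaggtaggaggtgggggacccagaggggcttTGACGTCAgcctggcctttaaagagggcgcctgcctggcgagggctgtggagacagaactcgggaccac
Slc18a2, chr1:268399771-268400020, plus strand: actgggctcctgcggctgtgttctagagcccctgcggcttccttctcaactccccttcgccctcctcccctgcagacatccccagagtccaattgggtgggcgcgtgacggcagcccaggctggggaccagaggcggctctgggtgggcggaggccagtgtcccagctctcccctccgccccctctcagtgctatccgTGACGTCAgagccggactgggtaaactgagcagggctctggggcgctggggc
Slc6a3, chr1:31578963-31579212, minus strand: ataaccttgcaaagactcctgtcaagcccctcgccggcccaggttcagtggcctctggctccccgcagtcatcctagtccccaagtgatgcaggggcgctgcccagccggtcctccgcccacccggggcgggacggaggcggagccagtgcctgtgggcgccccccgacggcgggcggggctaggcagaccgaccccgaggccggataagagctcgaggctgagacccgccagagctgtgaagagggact
Pdyn, chr3:137366504-137366753, minus strand: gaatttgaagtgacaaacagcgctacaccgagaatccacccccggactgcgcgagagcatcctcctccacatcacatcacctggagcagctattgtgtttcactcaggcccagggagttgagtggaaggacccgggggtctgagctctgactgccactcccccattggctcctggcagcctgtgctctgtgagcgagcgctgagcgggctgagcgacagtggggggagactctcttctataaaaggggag

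The motifs were searched on both strands: the cAMP response element TGACGTCA, which reads the same on both strands, the NR4A element AAAGGTCA and the bicoid type TAATCC. In Th the cAMP element lay 69 to 62 bases before the start and in Slc18a2 52 to 45 bases before it, while the Slc6a3 and Pdyn windows held none of the 3. Over the 17 tested members of the dopamine lists with a promoter entry, 2 held the cAMP element (11.8%), against 1.78% of all 27457 genes with an entry and 0 of 28 tested striatal members. The NR4A element was in Ddc alone of the 17 dopamine members (all genes, 1.3%), and TAATCC in 0 of 17 and, among the 28, in Chrm4 alone (all genes, 6.95%). These are letters in a window and were not tested as sites.

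Transcription factors that specify and maintain midbrain dopamine neurons were at low levels in NAc core, except Nr4a2. Of the factors below, Foxa2, En2, Lmx1a and Pitx3 passed the count filter through VTA alone. Their direction was thus fixed on entry. Foxa2 (ENSRNOG00000013133, chromosome 3), a forkhead factor of the ventral midbrain, had 0 counts in all 15 NAc core libraries and 7.14, 9.53 and 14.4 CPM in VTA. Against a floor of 3 counts in a NAc core library (0.157 CPM) its VTA mean was at least 62.1-fold higher. En2, which patterns the midbrain, was at 6.23 to 20.9 CPM in VTA and at most 0.187 CPM in NAc core (log2 difference 8.31, SE 0.27, adjusted p = 1.72e-14). Lmx1a, a floor plate factor, was at 6.78 to 23.6 CPM against at most 0.338 CPM (6.77, SE 0.27, adjusted p = 1.56e-13). Pitx3 (ENSRNOG00000019194, chromosome 1), needed for the survival of dopamine neurons, was at 7.15 to 15.7 CPM against at most 0.314 CPM (6.65, SE 0.28, adjusted p = 2.73e-13). Otx2, a factor of midbrain dopamine neurons and of the choroid plexus, was at 2.72 to 7.51 CPM against 0 to 1.01 CPM (4.11, SE 0.45, adjusted p = 1.41e-07).

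Nr4a2, the nuclear receptor Nurr1, was the 1 of these 6 tested factors (10 listed) that went the other way. Its levels were 17.0, 24.6 and 45.6 CPM in VTA and 20.2, 55.1 and 88.8 CPM in NAc core, and the ranges overlapped. The log2 difference was -0.84 (SE 0.22, adjusted p = 0.00182), with VTA higher in 5 of 15 pairs and in the means of prep batches J and L. It was -1.57 in males and -0.18 in females (difference between sexes 1.38, SE 0.27, adjusted p = 0.0107), and without the 7 pairs the difference over both sexes was -0.59 and no longer called. Nr4a2 was also higher in NAc core than in NAc shell, by 2.15 (adjusted p = 2.59e-07).

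Among surface and subtype markers of dopamine neurons, 6 of 9 tested members (of 18 listed) were higher in VTA and 3 higher in NAc core (all genes, 38.6% and 37.5%). Gucy2c, 1 of the 6, passed the count filter through VTA alone. Ret (ENSRNOG00000014751, chromosome 4), the signalling receptor for GDNF, was at 151 to 282 CPM in VTA and 2.38 to 7.40 CPM in NAc core (5.85, SE 0.11, adjusted p = 5.22e-17). Dlk1, a transmembrane Notch ligand relative, was at 57.5 to 115 CPM against 0.206 to 3.63 CPM (5.70, SE 0.24, adjusted p = 4.55e-13). Gucy2c, a membrane guanylyl cyclase, was at 0.684 to 3.13 CPM against at most 0.253 CPM (4.96, SE 0.41, adjusted p = 2.52e-09). The median of the 9 was 2.55.

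Factors that pattern other midbrain and hindbrain neurons were also higher in VTA, in all 9 tested of 27 listed. Of these, 6 were beyond 2-fold (all genes, 38.6% higher in VTA and 6.66% beyond 2-fold), and the median was 2.05. Sox14, Irx2 and Gata3 passed the count filter through VTA alone, so their part in this count was fixed on entry. Sox14, a factor of midbrain GABA neurons, had 1366 counts over the 15 VTA libraries and 2 over the 15 NAc core libraries. Irx2, an Iroquois factor, was at 2.70 to 26.6 CPM against at most 0.126 CPM (7.65, SE 0.35, adjusted p = 6.05e-13). Gata3, a factor of midbrain GABA and of hindbrain serotonin neurons, was at 4.76 to 14.6 CPM against at most 0.218 CPM (7.47, SE 0.33, adjusted p = 4.67e-13, and 8.15 without the 7 pairs), and it was the only serotonergic list member (of 7) with a symbol. Gene LOC102553190, of which no role is given here, was also among the 10 largest rises, at 13.4 to 32.3 CPM against at most 0.880 CPM (7.22, SE 0.28, adjusted p = 1.23e-13).

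**Figure D3:**
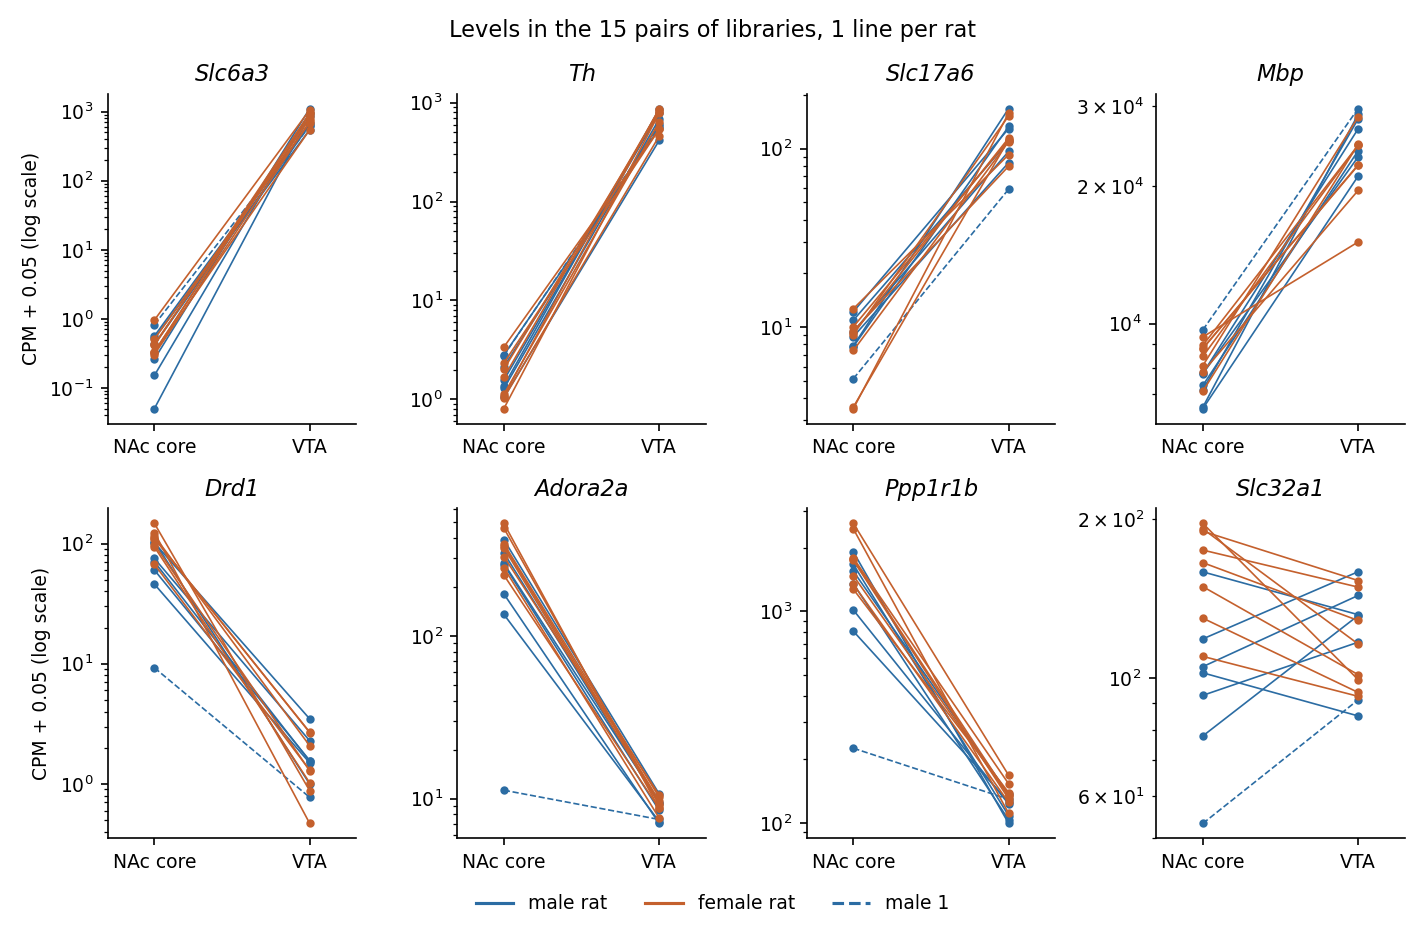
Level (CPM + 0.05, log scale) of 8 genes in NAc core and VTA, 1 line per rat, males blue, females orange and male 1 dashed. Lines of Slc6a3, Th, Slc17a6 and Mbp rise to VTA in all 15 rats, those of Drd1, Adora2a and Ppp1r1b fall in all 15, and those of Slc32a1 run both ways.

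Of the 10 largest falls among genes with a symbol, ranked as the rises were, 3 were on the lists of striatal projection neurons and their signalling: Drd1, Adora2a and Rgs9. Drd1 (ENSRNOG00000023688, chromosome 17), the D1 dopamine receptor of the direct pathway, was at 9.20, 98.0 and 147 CPM in NAc core and 0.418, 1.44 and 3.42 CPM in VTA. The lowest NAc core library, male 1, still lay above every VTA library, and the log2 difference was -5.77 (SE 0.23, adjusted p = 1.54e-13; -5.85 without male 1). Pdyn (ENSRNOG00000026036, chromosome 3), the precursor of dynorphin, was at 33.8, 319 and 456 CPM against 6.37, 10.9 and 32.5 CPM (-4.42, SE 0.21, adjusted p = 1.80e-12). Its highest VTA library, female 13, came close to its lowest NAc core library, male 1. Tac1, the precursor of substance P, was at 13.5, 221 and 343 CPM against 10.0, 16.5 and 39.9 CPM, and overlapped through male 1 (-3.19, SE 0.23, adjusted p = 3.54e-10). Isl1, a transcription factor of direct pathway neurons, was at 1.03 to 20.9 CPM against 0.0456 to 1.95 CPM (-4.04, SE 0.43, adjusted p = 1.02e-07, and -5.16 without the 7 pairs). The ranges of Isl1 overlapped through male 1. Of the 8 direct pathway members, all tested, 6 were higher in NAc core and 2 higher in VTA (all genes, 37.5% and 38.6%). Their median was -3.46, or -3.86 without the 7 pairs.

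Only 2 of 8 indirect pathway members had a symbol. Adora2a (ENSRNOG00000001302, chromosome 20), the adenosine receptor, was at 11.2, 307 and 491 CPM in NAc core and 6.98, 9.14 and 10.6 CPM in VTA, and it was lower in VTA in all 15 pairs (-4.87, SE 0.29, adjusted p = 3.16e-11). Drd2 (ENSRNOG00000008428, chromosome 8), the D2 dopamine receptor, is made by indirect pathway neurons and, as an autoreceptor, by dopamine neurons. It was at 8.28, 183 and 311 CPM in NAc core and 66.3, 88.7 and 131 CPM in VTA, so the regions overlapped. The log2 difference was -0.74 (SE 0.25, adjusted p = 0.0114), VTA was higher in 2 of 15 pairs, and the mean of prep batch A, which holds male 1, was 0.75. Without male 1 the difference was -0.93. In males alone Drd2 was not called (-0.30, adjusted p = 0.566), and in females alone it was (-1.10, adjusted p = 1.02e-05).

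Genes whose products relay dopamine and cAMP signals in striatal projection neurons ran in one direction in the RNA of this mixed tissue. All 20 tested of 22 listed were higher in NAc core, 15 beyond 2-fold (all genes, 37.5% and 5.52%), with a median of -2.13 (all genes, 0.01). Rgs9, which speeds the turning off of D2 signals in striatum, was at 17.9, 485 and 828 CPM in NAc core and 4.55, 8.35 and 14.2 CPM in VTA (-5.44, SE 0.28, adjusted p = 5.08e-12). Rgs14, a G protein regulator, was at 90.5 to 125 CPM against 3.01 to 16.6 CPM (-4.29, SE 0.20, adjusted p = 1.80e-12, and -4.89 without the 7 pairs). Arpp21, a cAMP-regulated phosphoprotein, was at 615 to 2038 CPM against 51.1 to 163 CPM (-4.09, SE 0.14, adjusted p = 3.84e-14). Ppp1r1b (ENSRNOG00000028404, chromosome 10), DARPP-32, the phosphatase inhibitor on which dopamine and glutamate signals meet, was at 225, 1551 and 2611 CPM against 99.2, 129 and 168 CPM (-3.47, SE 0.21, adjusted p = 5.24e-11; -3.63 without male 1). Scn4b, a sodium channel beta subunit on the same list, was at 121 to 921 CPM against 57.5 to 213 CPM and lower in VTA in 14 of 15 pairs (-1.81, SE 0.24, adjusted p = 1.60e-06).

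Transcription factors of striatal neurons were split, with 6 of 9 tested (20 listed) higher in NAc core, 1 higher in VTA and 2 not called. Their median was -2.25 (all genes, 37.5% higher in NAc core and 38.6% higher in VTA). Bcl11b, also called Ctip2, was at 48.3 to 225 CPM in NAc core and 3.82 to 19.9 CPM in VTA (-4.26, SE 0.17, adjusted p = 2.12e-13). Dlx1, a factor of forebrain GABA neurons, was at 14.5 to 34.5 CPM against 0.170 to 5.95 CPM (-4.05, SE 0.37, adjusted p = 1.33e-08, and -5.38 without the 7 pairs).

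The other 7 of these 10 falls were Kcnj4, Ddn, Itpka, Egr3, Lrrc10b, AABR07059679.2 and Gabrd, of which Gabrd is given with the GABA-A receptors. Kcnj4, an inward rectifier potassium channel of striatal dendrites, was at 100.1 to 145 CPM in NAc core and 0.305 to 13.7 CPM in VTA (-5.32, SE 0.30, adjusted p = 1.64e-11). Ddn, dendrin, fell by 5.31 (SE 0.47, adjusted p = 8.65e-09), from 1002 to 1486 CPM in NAc core to 11.4 to 397 CPM in VTA. Itpka, an inositol trisphosphate kinase of dendritic spines, was at 118 to 183 CPM against 1.20 to 25.2 CPM (-5.06, SE 0.43, adjusted p = 4.36e-09). Egr3, an activity-induced transcription factor, was at 20.1 to 51.7 CPM against 0.243 to 8.04 CPM (-4.73, SE 0.31, adjusted p = 1.56e-10). For Kcnj4, Ddn, Itpka and Egr3 alike, VTA of female 12 was the highest VTA library, and without the 7 pairs their differences were -6.30, -6.22, -6.26 and -5.67. Lrrc10b, of which no role is given here, was at 4.01 to 205 CPM against 2.25 to 7.90 CPM, where only NAc core of male 1 fell within the VTA range (-4.69, SE 0.27, adjusted p = 2.69e-11). AABR07059679.2, also without a stated role, was at 8.33 to 56.2 CPM against 0.0425 to 3.18 CPM (-5.54, SE 0.37, adjusted p = 1.39e-10, and -7.31 without the 7 pairs).

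**Figure D4:**
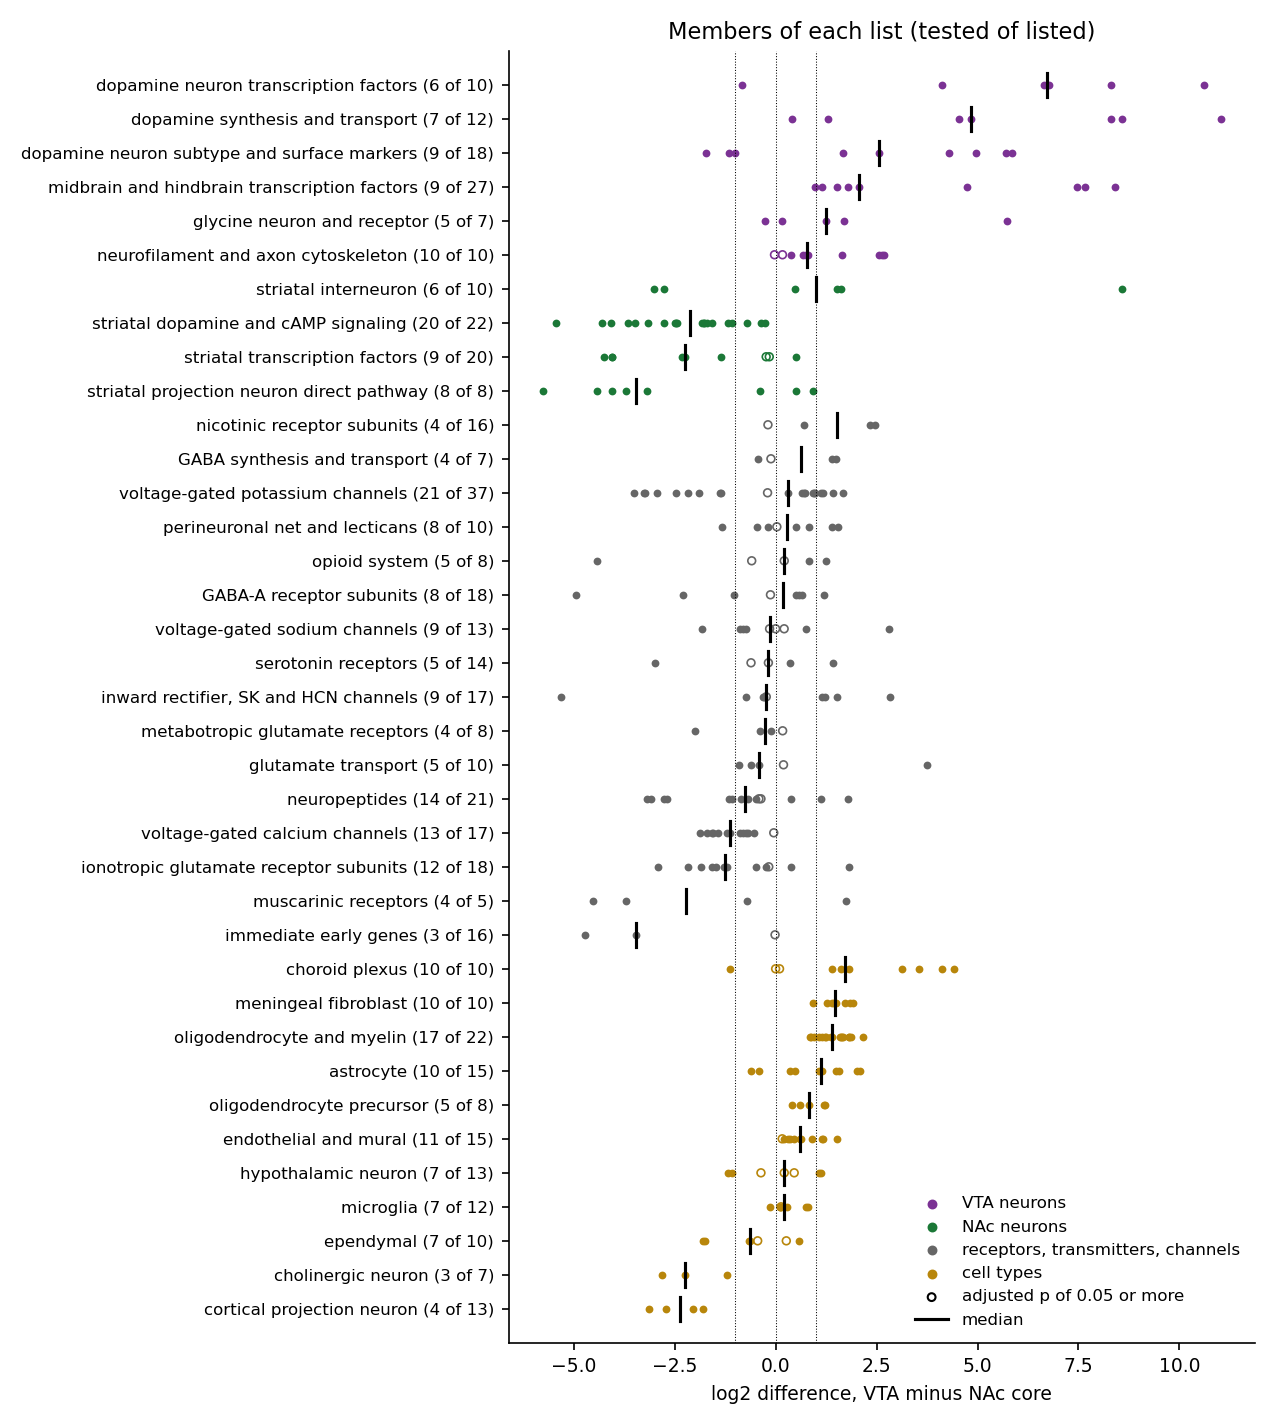
Log2 difference, VTA minus NAc core, of each tested member of the lists with 3 or more tested members, 1 point per gene, with the median of each list as a black bar and open points where the adjusted p was 0.05 or more. The dopamine synthesis list has its median at 4.84 and the striatal signalling list at -2.13, and dotted lines mark no difference and 2-fold.

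Nicotinic receptors, the targets of NIC, are ion channels of 5 subunits opened by acetylcholine, and 4 of 16 listed subunit genes had a symbol. Chrna3 (ENSRNOG00000013829, chromosome 8), an alpha subunit, was at 4.70, 8.15 and 12.1 CPM in VTA and 0.505, 1.66 and 2.64 CPM in NAc core, without overlap (2.35, SE 0.18, adjusted p = 1.01e-09). Chrnb4 (ENSRNOG00000014427, chromosome 8), the beta subunit that lies in the same gene cluster, was at 1.36, 2.44 and 3.94 CPM against 0.0854, 0.450 and 1.27 CPM, also without overlap (2.46, SE 0.27, adjusted p = 1.68e-07). Chrnb2 (ENSRNOG00000020778, chromosome 2), the beta subunit of most brain receptors, was at 16.8, 23.2 and 28.6 CPM against 10.1, 14.6 and 19.8 CPM, overlapping but higher in VTA in all 15 pairs (0.70, SE 0.07, adjusted p = 2.11e-08). Chrna1, the muscle alpha subunit, was at 2.39 to 4.96 CPM against 1.97 to 5.75 CPM and was not called (-0.19, SE 0.11, adjusted p = 0.127). It was called without male 4 (-0.24, adjusted p = 0.0392). In NIC-treated rats the differences of Chrna3, Chrnb4 and Chrnb2 were 2.77, 2.92 and 0.63.

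Acetylcholine's other receptors, the muscarinic ones, were unequal. Chrm1 was at 36.2 to 63.0 CPM in NAc core and 0.440 to 9.97 CPM in VTA (-4.53, SE 0.35, adjusted p = 1.25e-09, and -5.72 without the 7 pairs), and Chrm4, the receptor of direct pathway neurons, at 56.9 to 163 CPM against 2.93 to 17.4 CPM (-3.72, SE 0.17, adjusted p = 1.32e-12). Chrm2 was higher in VTA, at 0.924 to 8.96 CPM against 0.303 to 1.63 CPM (1.75, SE 0.26, adjusted p = 8.16e-06). Of 5 listed, 4 were tested. Genes of cholinergic neurons, which in NAc core are interneurons, were higher there in all 3 tested of 7 (all genes, 37.5%). Slc18a3, the vesicular acetylcholine transporter, was at 0.823, 9.79 and 23.7 CPM against 0.350, 0.855 and 6.17 CPM (-2.82, SE 0.43, adjusted p = 9.88e-06). Chat, which makes acetylcholine, was at 0.463 to 9.11 CPM against 0.153 to 4.85 CPM (-2.24, SE 0.51, adjusted p = 6.16e-04, and -3.01 without the 7 pairs), and Slc5a7, the choline transporter, at 0.566 to 22.2 CPM against 1.22 to 10.4 CPM (-1.19, SE 0.33, adjusted p = 0.00329). For all 3, NAc core of male 1 was the lowest NAc core library and the ranges overlapped. In males alone Chat (-1.56, adjusted p = 0.142) and Slc5a7 (-0.55, adjusted p = 0.414) were not called. For all 3 NAc core was below NAc shell (-0.97, -1.03 and -0.85).

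Glutamate and GABA genes separated the regions in different ways. Slc17a6 (ENSRNOG00000016147, chromosome 1), the vesicular glutamate transporter of subcortical neurons, was at 59.3, 112 and 168 CPM in VTA and 3.45, 9.03 and 12.6 CPM in NAc core, without overlap (3.76, SE 0.17, adjusted p = 1.19e-12). Slc17a8, another vesicular glutamate transporter, was at 0.467 to 4.72 CPM against 0.720 to 6.18 CPM (-0.90, SE 0.36, adjusted p = 0.0282), and its call was lost in males alone (-0.42, adjusted p = 0.547) and without any 1 of 5 pairs (4, 7, 11, 14 or 15, with values of -0.84 to -0.77). Slc1a2, the glial glutamate uptake carrier, was at 11.8 to 22.4 CPM against 19.1 to 27.9 CPM and lower in VTA in 15 of 15 pairs (-0.61, SE 0.08, adjusted p = 8.06e-07).

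GABA is made and released in both regions. Of its 4 tested genes (7 listed), 2 were higher in VTA, both beyond 2-fold, 1 was higher in NAc core and 1 was not called. Gad1, which makes GABA, was at 176, 303 and 392 CPM in VTA and 216, 390 and 542 CPM in NAc core (-0.43, SE 0.10, adjusted p = 7.70e-04), and Slc32a1, which loads it into vesicles, at 84.9, 117 and 159 CPM against 53.2, 130 and 196 CPM, was not called (-0.11, SE 0.12, adjusted p = 0.409). Abat, which breaks GABA down, was at 121 to 194 CPM against 43.9 to 85.8 CPM without overlap (1.39, SE 0.11, adjusted p = 1.04e-09), and Slc6a13, a GABA carrier of meninges and liver, at 20.2 to 151 CPM against 20.1 to 46.8 CPM (1.5, SE 0.24, adjusted p = 1.49e-05). In males alone Gad1 was not called (-0.12, adjusted p = 0.406). Slc6a13 is also on the meningeal list given below. Glycine genes were led by Glra1, the glycine receptor subunit of brainstem and spinal cord, at 1.20 to 4.72 CPM against at most 0.126 CPM (5.73, SE 0.36, adjusted p = 4.60e-11). Slc6a9, the glial glycine transporter, was at 303 to 512 CPM against 98.8 to 149.9 CPM (1.69, SE 0.07, adjusted p = 3.81e-13), and Slc6a5, the neuronal one, at 4.20 to 18.4 CPM against 2.11 to 6.88 CPM (1.24, SE 0.21, adjusted p = 3.39e-05). Of 5 tested glycine members (7 listed), 4 were higher in VTA and 1 higher in NAc core. Glra1, 1 of the 4, passed the count filter through VTA alone.

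Receptor channels for glutamate were mostly higher in NAc core: 9 of 12 tested of 18 listed, 7 beyond 2-fold, with 2 higher in VTA and a median of -1.24 (all genes, 37.5% higher in NAc core and 5.52% beyond 2-fold). Grin2b, an NMDA receptor subunit, was at 21.9 to 44.0 CPM against 2.17 to 7.52 CPM (-2.92, SE 0.14, adjusted p = 1.39e-12). The AMPA receptor subunits Gria2, at 314 to 608 CPM against 45.1 to 229 CPM (-2.17, SE 0.14, adjusted p = 6.78e-11), and Gria3, at 219 to 327 CPM against 58.1 to 109 CPM (-1.86, SE 0.09, adjusted p = 1.11e-12), did not overlap either. Grm5, the postsynaptic metabotropic receptor of projection neurons, was at 5.14 to 23.3 CPM against 1.20 to 6.54 CPM (-1.98, SE 0.19, adjusted p = 2.56e-08). Grm4 differed by -0.39 (SE 0.10, adjusted p = 0.00153), and was not called in males alone (-0.21, adjusted p = 0.173) or in NIC-treated rats (-0.31, adjusted p = 0.0505).

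GABA-A receptor subunits, of which 8 of 18 were tested, ran both ways with 4 higher in VTA and 3 in NAc core (median 0.18). All genes were split in a like way, 38.6% and 37.5%. Gabrd, the delta subunit of extrasynaptic receptors, was at 82.3 to 126 CPM in NAc core and 0.729 to 24.7 CPM in VTA (-4.94, SE 0.34, adjusted p = 2.30e-10, and -5.57 without the 7 pairs). Gabra4, its usual partner in forebrain, was at 108 to 246 CPM against 19.4 to 84.5 CPM (-2.28, SE 0.12, adjusted p = 4.06e-12). Gabre was higher in VTA, at 5.23 to 8.89 CPM against 2.04 to 4.45 CPM (1.20, SE 0.09, adjusted p = 4.98e-10).

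Opioid and peptide genes followed no single direction. Pnoc, the precursor of nociceptin, was at 15.8 to 32.6 CPM in VTA against 5.82 to 13.7 CPM (1.26, SE 0.08, adjusted p = 1.79e-10), and Oprl1, its receptor, at 26.8 to 41.2 CPM against 9.03 to 25.6 CPM (0.83, SE 0.08, adjusted p = 1.34e-08), and neither overlapped. Of 5 tested opioid members (8 listed), these 2 were higher in VTA, Pdyn was higher in NAc core and 2 were not called. Among neuropeptides, 9 of 14 tested (21 listed) were higher in NAc core and 3 in VTA (all genes, 37.5% and 38.6%), with a median of -0.76. Sst, somatostatin of striatal interneurons, was at 188, 225 and 273 CPM in NAc core and 17.4, 32.5 and 49.9 CPM in VTA (-2.77, SE 0.10, adjusted p = 8.57e-14). Tac3, which codes for neurokinin B, was at 14.3 to 57.3 CPM against 0.638 to 14.0 CPM (-3.09, SE 0.35, adjusted p = 1.99e-07, and -4.002 without the 7 pairs). Lhx6, a factor of interneurons, was at 0.505 to 1.96 CPM against 0 to 0.910 CPM (-3.02, SE 0.53, adjusted p = 4.05e-05, and -5.46 without the 7 pairs). The interneuron list had 4 of 6 tested (10 listed) higher in VTA, Th among them, and 2 higher in NAc core. Serotonin receptors included Htr6, at 3.03 to 11.7 CPM in NAc core against 0.472 to 1.71 CPM (-2.98, SE 0.16, adjusted p = 1.14e-11). Htr7 was the other way, at 9.98 to 24.7 CPM in VTA against 4.06 to 10.4 CPM (1.42, SE 0.13, adjusted p = 2.24e-08), and Htr5a differed by 0.37 (SE 0.12, adjusted p = 0.00779). Htr5a was not called in males alone (0.22, adjusted p = 0.216) or in NIC-treated rats (0.20, adjusted p = 0.137). Of the 5 tested (14 listed), 2 were not called.

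Voltage-gated calcium channels open in response to depolarization. Of 13 tested (17 listed), 12 were higher in NAc core, 5 beyond 2-fold, 0 were higher in VTA, and the median was -1.12. The shares over all genes were 37.5% higher in NAc core, 5.52% beyond 2-fold there and 38.6% higher in VTA. The auxiliary subunit Cacnb3 was at 350 to 508 CPM against 93.3 to 160 CPM (-1.88, SE 0.08, adjusted p = 6.63e-13). Cacna2d3 was at 65.9 to 146 CPM against 26.7 to 54.4 CPM (-1.69, SE 0.09, adjusted p = 7.64e-12), and Cacnb1 at 228 to 338 CPM against 78.1 to 112 CPM (-1.57, SE 0.05, adjusted p = 5.56e-15). All 3 are auxiliary subunits and none overlapped.

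Potassium channels were mixed, with 11 of 21 tested voltage-gated members (37 listed) higher in VTA and 9 higher in NAc core. The shares over all genes, 38.6% and 37.5%, were split in a like way. Kcnf1, a silent subunit, was at 27.3 to 43.9 CPM against 1.46 to 8.15 CPM (-3.51, SE 0.17, adjusted p = 2.58e-12), and Kcnh4 at 28.7 to 45.7 CPM against 2.50 to 5.60 CPM (-3.23, SE 0.10, adjusted p = 1.72e-14). Kcnip2, which speeds A-type currents, was at 6.32 to 56.9 CPM against 0.489 to 25.0 CPM (-3.25, SE 0.55, adjusted p = 3.46e-05, and -4.24 without the 7 pairs), and its highest VTA library was female 13. Kcnj10, the glial inward rectifier, was higher in VTA at 18.9 to 45.4 CPM against 2.83 to 7.31 CPM (2.83, SE 0.15, adjusted p = 5.54e-12), as was the pacemaker channel Hcn4 at 27.2 to 37.1 CPM against 6.91 to 13.5 CPM (1.53, SE 0.07, adjusted p = 1.33e-12). Of 9 tested inward rectifier, SK and HCN channels (17 listed), 4 were higher in VTA, 4 higher in NAc core and 1 was not called. Sodium channels held Scn7a, a glial and sodium-sensing channel, at 3.10 to 8.08 CPM in VTA against 0.109 to 2.34 CPM (2.81, SE 0.25, adjusted p = 6.53e-09), and Scn3a at 15.9 to 26.9 CPM against 23.0 to 55.8 CPM (-0.88, SE 0.07, adjusted p = 2.86e-09). Of 9 tested sodium channel members (13 listed), 2 were higher in VTA, 4 higher in NAc core and 3 not called.

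The cytoskeleton of long axons was higher in VTA in 8 of 10 tested members, 4 beyond 2-fold and 0 higher in NAc core, with a median of 0.79 (all genes, 38.6% higher in VTA and 6.66% beyond 2-fold). Nefh, the heavy neurofilament, was at 345, 706 and 1048 CPM against 78.3, 94.5 and 185 CPM (2.67, SE 0.13, adjusted p = 2.14e-12), Prph, peripherin, at 29.6 to 65.6 CPM against 5.21 to 11.2 CPM (2.65, SE 0.13, adjusted p = 1.70e-12) and Sncg, gamma-synuclein, at 106 to 202 CPM against 15.2 to 40.7 CPM (2.55, SE 0.08, adjusted p = 1.95e-14). None overlapped. Among matrix genes, Hapln4, of perineuronal nets around fast-firing neurons, differed by 1.54 (SE 0.13, adjusted p = 4.89e-09) and Hapln2, of the nodes of Ranvier, by 1.40 (SE 0.07, adjusted p = 5.40e-12), while Hapln1 was higher in NAc core (-1.32, SE 0.09, adjusted p = 4.37e-10). Of the 8 tested matrix members (10 listed), 4 were higher in VTA and 3 in NAc core.

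Activity-induced transcription factors had symbols for only 3 of 16. Npas4, induced by calcium entry in neurons, was at 6.38 to 63.4 CPM in NAc core and 0.546 to 16.6 CPM in VTA (-3.47, SE 0.21, adjusted p = 5.67e-11), and with Egr3 it made 2 of 3 higher in NAc core. Their highest VTA library was female 12 in both cases.

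Most tested glial and vascular genes were higher in VTA, with exceptions among astrocyte and microglial genes given below. All 17 tested oligodendrocyte and myelin members (22 listed) were higher in VTA, 12 beyond 2-fold, none overlapped, and the median was 1.40. Of all genes, 38.6% were higher in VTA, 6.66% were so beyond 2-fold and 21.5% did not overlap. Their summed level was 26650 to 49210 CPM in VTA and 10840 to 15560 CPM in NAc core. Mbp (ENSRNOG00000016516, chromosome 18), myelin basic protein, was at 15100, 24600 and 29620 CPM against 6509, 7834 and 9684 CPM (1.59, SE 0.09, adjusted p = 8.50e-12). Ermn, an oligodendrocyte cytoskeletal protein, led the list at 87.4 to 161 CPM against 20.8 to 40.05 CPM (2.15, SE 0.12, adjusted p = 1.57e-11), before Gjb1, a gap junction protein (1.87, SE 0.07, adjusted p = 4.87e-14). VTA of female 13 had the lowest Mbp of the VTA libraries. All 5 tested precursor members (8 listed) were higher in VTA with a median of 0.82, among them C1ql1 (1.23, SE 0.09, adjusted p = 2.93e-10), Gpr17 (1.20, SE 0.18, adjusted p = 6.40e-06) and Tnr (0.82, SE 0.14, adjusted p = 4.52e-05).

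Astrocyte genes were higher in VTA in 8 of 10 tested members (15 listed) and higher in NAc core in 2 (all genes, 38.6% and 37.5%). Gfap (ENSRNOG00000002919, chromosome 10), the filament of fibrous astrocytes, was at 1375, 2330 and 3774 CPM against 398, 562 and 719 CPM (2.08, SE 0.08, adjusted p = 9.16e-14). Slc4a4, a bicarbonate transporter, was at 24.5 to 59.0 CPM against 5.45 to 19.0 CPM (2.02, SE 0.17, adjusted p = 4.78e-09), and Aqp4, the water channel of astrocyte endfeet, at 897 to 1426 CPM against 320.1 to 464 CPM (1.58, SE 0.06, adjusted p = 6.69e-14). The 2 members higher in NAc core included the glutamate carrier Slc1a2 named above. Mfge8, an astrocyte secreted protein listed among regional subtypes, was higher in NAc core (-0.72, SE 0.07, adjusted p = 1.50e-08).

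Microglial genes differed least among the glial lists, with 5 of 7 tested (12 listed) higher in VTA, 1 higher in NAc core and 0 beyond 2-fold. Their median was 0.21 (all genes, 38.6% higher in VTA, 37.5% higher in NAc core and 12.2% beyond 2-fold). Itgam differed by 0.81 (SE 0.08, adjusted p = 3.40e-08), Cx3cr1 by 0.75 (SE 0.07, adjusted p = 1.54e-08) and Csf1r by 0.29 (SE 0.04, adjusted p = 1.17e-06), each higher in VTA in 15 of 15 pairs. Of endothelial and mural genes, 10 of 11 tested (15 listed) were higher in VTA and 0 in NAc core (all genes, 38.6% and 37.5%). None of them was beyond 2-fold, and the median was 0.61. Tagln and Myh11, of smooth muscle, differed by 1.52 (SE 0.29, adjusted p = 1.04e-04) and 1.16 (SE 0.25, adjusted p = 3.91e-04), and Myh11 was not called without the 7 pairs (0.79), in males alone (0.88, adjusted p = 0.0703) or in NIC-treated rats (0.52, adjusted p = 0.0766). Rgs5, of pericytes, differed by 1.17 (SE 0.09, adjusted p = 1.28e-09). Alas2, an enzyme of red cell precursors and the 1 of 7 blood genes with a symbol, differed by 0.99 (SE 0.12, adjusted p = 8.24e-07).

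Markers of meninges and choroid plexus moved with the region too, and their part in the results above was not tested. All 10 meningeal fibroblast members were higher in VTA, 4 beyond 2-fold (all genes, 38.6% and 6.66%). Their summed level was 331 to 2580 CPM against 196 to 730 CPM. Igf2 was at 166 to 1356 CPM against 71.2 to 353 CPM (1.92, SE 0.27, adjusted p = 2.99e-06), Dcn, decorin, at 15.4 to 71.0 CPM against 6.23 to 24.0 CPM (1.84, SE 0.17, adjusted p = 1.17e-08) and Lum, lumican, at 7.15 to 32.8 CPM against 3.41 to 8.75 CPM (1.72, SE 0.19, adjusted p = 1.56e-07). VTA of male 6 was the lowest VTA library in all 3. The 10 choroid plexus members split into 7 higher in VTA, 1 higher in NAc core and 2 not called. Apart from Ttr (4.41, SE 0.61, adjusted p = 2.80e-06; 3.28 without the 7 pairs) and Otx2, they included Slc4a5 at 1.89 to 8.33 CPM against at most 0.821 CPM (3.55, SE 0.38, adjusted p = 1.18e-07).

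On the NAc core side, markers of cortical projection neurons were high: all 4 tested of 13 listed were beyond 2-fold and higher in NAc core (all genes, 5.52%). Their summed level was 1590 to 3744 CPM against 164 to 618 CPM, highest in NAc core of male 1. Striatal neurons also express several of them. Nrgn, neurogranin, a calmodulin-binding protein of forebrain neurons, was at 1354, 2248 and 3312 CPM against 122, 236 and 481 CPM (-3.13, SE 0.21, adjusted p = 1.99e-10). Camk2a, a synaptic kinase, differed by -2.71 (SE 0.20, adjusted p = 5.11e-10) and Nptx1, a pentraxin, by -2.03 (SE 0.22, adjusted p = 9.95e-08). The NAc core was also above the NAc shell in Nrgn, by 1.34 (adjusted p = 2.26e-07). In the fit of both sexes, ependymal genes were lower in VTA in 4 of 7 tested members (10 listed) and higher in 1. Their median was 0.21 in males and -1.39 in females, and 4 of the 7 were called for region by sex (all genes, 5.75%). They were led by Pifo (-1.80, SE 0.52, adjusted p = 0.00399, and -2.95 without the 7 pairs), Ccdc153 (-1.75, SE 0.28, adjusted p = 2.05e-05) and Hydin (-0.66, SE 0.25, adjusted p = 0.0223), whose call was lost without female 10 (-0.55) or female 11 (-0.56). In males alone Pifo (-0.75, adjusted p = 0.327) and Hydin (0.21, adjusted p = 0.397) were not called, and neither were they in NIC-treated rats (-0.49, adjusted p = 0.406, and -0.26, adjusted p = 0.358). Hypothalamic peptides gave 2 of 7 tested (13 listed) higher in each region. Gal, galanin, was higher in VTA (1.13, SE 0.21, adjusted p = 1.03e-04), Trh was lower (-1.08, SE 0.32, adjusted p = 0.00535, and -1.78 without the 7 pairs), and Hcrt, at no more than 1.23 CPM anywhere, was lower (-1.18, SE 0.51, adjusted p = 0.0404), a call lost without any 1 of 9 pairs (1, 6, 9, 10, 11, 12, 14, 15 or 16; -1.18 to -0.98). It was also lost without the 7 pairs (-1.22, adjusted p = 0.144). Trh was not called in males alone (-0.76, adjusted p = 0.135) or in NIC-treated rats (-0.51, adjusted p = 0.132). Hcrt was 0.47 in males alone (adjusted p = 0.507, and 0.031 for region by sex), and in NIC-treated rats it was called the other way, higher in VTA (1.49, adjusted p = 0.0254).

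The NAc shell of the same rats was a second striatal region in which the same genes could be read. Between NAc core and shell of the 16 saline rats, 3847 genes were called (23.5%). All 10 meningeal members were among them, each higher in the shell. Drd1, Adora2a, Rgs9 and Pdyn were not called between core and shell (-0.15, 0.27, 0.04 and -0.21). Other striatal genes were: of the 8 direct pathway members, 4 were called, all 4 higher in the shell. Of 9 tested striatal transcription factors, 6 were called, only 1 of them higher in the core. Of the striatal dopamine and cAMP list, 9 of 20 were called, all 9 higher in the core, Arpp21 among them (0.51, adjusted p = 3.06e-04). The same NAc core libraries enter both comparisons.

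NIC-treated rats gave a set of 15 pairs of other animals. A further NIC-treated rat, female 1, was left out, and the counts with it are given below. In 3 of the 15 (males 9 and 11 and female 3) VTA and NAc core were in different prep batches, unlike in the saline pairs. There 1513 genes were beyond 2-fold (9.25%), of which 1410 were also beyond 2-fold in the same direction in the saline rats, 1410 of 1992 seen from that side. Of the 1992, 1989 had the same direction in NIC-treated rats. Slc6a3 differed there by 11.19, Th by 8.41, Drd1 by -5.89 and Adora2a by -4.76. When the regional difference itself was compared between the treatments, 0 genes had an adjusted p under 0.05 in edgeR (0.00%), and 1198 had an unadjusted p under 0.05. With female 1 included these counts were 0 and 1592. The 5 genes with a symbol and the smallest p were AC141959.1 (2.29 in saline and 1.47 in NIC-treated rats, adjusted p = 0.327), Rassf2 (1.70 and 1.24, adjusted p = 0.327), Nlrp1a (0.88 and 0.26, adjusted p = 0.385), Tex10 (-0.27 and -0.04, adjusted p = 0.486) and Itpkb (2.30 and 1.80, adjusted p = 0.486). In all 5 the difference was smaller in size in NIC-treated rats.

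Males and females shared the direction of the large differences and differed in size at a smaller number of genes. The size of the regional difference differed between the sexes in 940 genes (5.75%), with a more positive value in females in 518, and 144 of the 940 were among the 1992 beyond 2-fold. The count depended on single pairs: it was 512 to 1282 when 1 pair was left out, 568 without male 1 and 618 without the 7 pairs. In 72 genes the 2 sexes were each called in opposite directions. Among the defining genes of both regions, the term for sex was -0.01 for Slc6a3 (adjusted p = 0.992), 0.26 for Th (adjusted p = 0.750) and -0.92 for Drd1 (adjusted p = 0.199). Slc18a2 was an exception, at 11.07 in males and 7.43 in females (-3.64, SE 0.83, adjusted p = 0.0172), but 4 of the 7 male NAc core libraries had 0 counts and the others at most 0.303 CPM, so the fitted male value rests on few counts and its size depends on the prior count. In females its NAc core level was 0 to 2.32 CPM. 3 of the 4 GABA genes were called, Gad1 (-0.12 in males and -0.71 in females, adjusted p = 0.0221), Slc32a1 (0.30 and -0.48, adjusted p = 0.0120) and Abat (1.69 and 1.11, adjusted p = 0.0294). Their median NAc core levels were lower in males than in females, 307 against 502 CPM for Gad1, 102 against 170 CPM for Slc32a1 and 50.8 against 73.2 CPM for Abat. Without male 1, Abat had an adjusted p of 0.0595 (0.0100 without the 7 pairs), and without the 7 pairs Slc32a1 had an adjusted p of 0.0816 (0.0264 without male 1). Gad1 was called in both cases. Sex cannot be told apart from prep batch here.

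**Figure D5:**
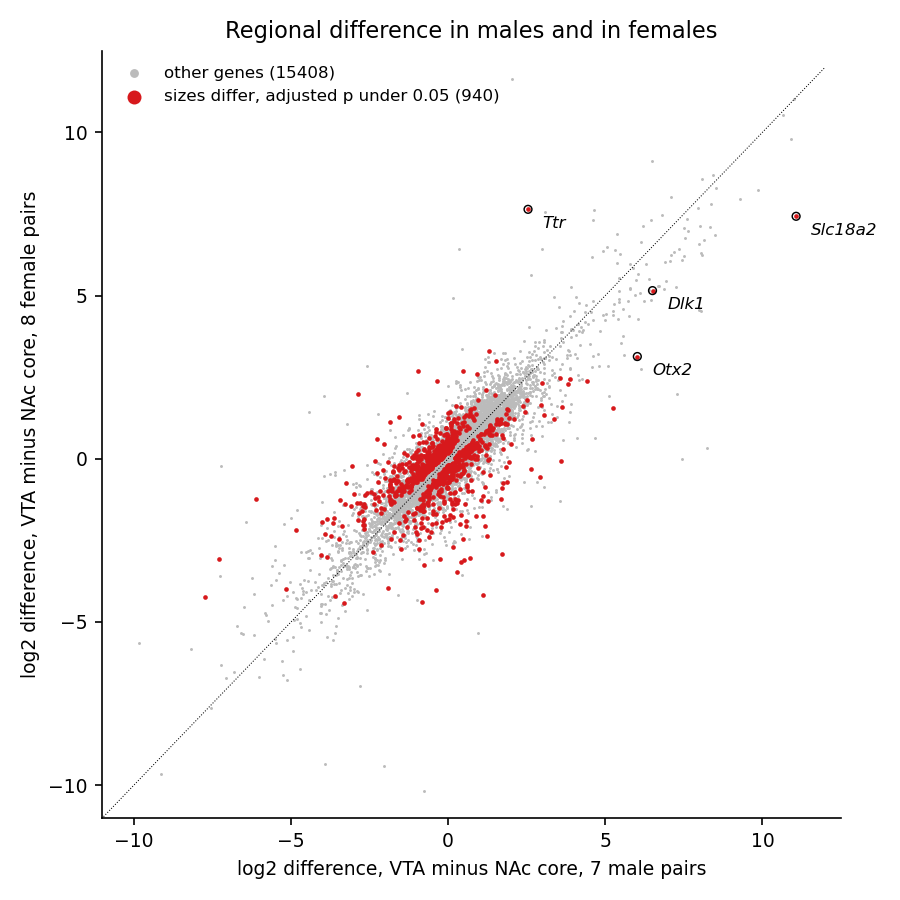
Log2 difference, VTA minus NAc core, in the 7 male pairs (horizontal) and the 8 female pairs (vertical) for the 16348 tested genes, 1 point per gene, with the line of equal size dotted. Red points are the 940 genes whose sizes differ with an adjusted p under 0.05, and Slc18a2 lies at 11.07 in males and 7.43 in females.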

How the data were processed

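RNA-seq of bulk VTA and NAc core came from 15 saline rats. Per the labels and methods, the authors trimmed reads with fastp 0.20.0, mapped them to Rnor version 6 with Salmon 0.12.0 and collapsed transcripts to genes. They deposited estimated counts per gene as whole numbers, without normalization; how these became whole is not stated. Genes with over 10 normalized counts in 3 or more libraries were tested in R 4.3.3 with edgeR 4.0.16 (TMM scaling, quasi-likelihood fit, rat as a block; limma 3.58.1), with DESeq2 1.42.0 as an alternative. A gene could pass this filter through 1 region alone, which fixed the direction of its difference. Figures used Python and matplotlib. The fit was run on simulated counts in which 200 of 16348 genes were changed, far fewer than were called in the data. All rats had the same mean there, and no library stood apart. The region test recovered 79% of changes of 0.5 on the log2 scale and 95% of changes of 1. Region by sex recovered 29% and 70%. These shares need not hold for the data.

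Libraries were paired on the reading that the same number and sex in the labels name the same rat. Deviations of same-numbered libraries had a median correlation of 0.0617 (-0.226 to 0.143, above 0.1 in 3 of 15 pairs). For other numbers of the same sex it was -0.0104. In 3 of 15 pairs the VTA library correlated best with the NAc core library of its own number. The pairing thus rests on the labels. With the rat as a block, p-values rest on how the difference between regions within a rat varies from rat to rat. Counts set the precision: genes under 1 CPM rest on few reads.

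Members and lists were chosen with earlier results of these data known. Named were, for each list, up to 3 called members with the largest difference, a set of defining genes, the 10 largest rises and falls beyond 2-fold among genes with a symbol, with one direction in 15 pairs and at least 5 CPM in the higher region, the 5 genes with a symbol and the smallest p for sex and for treatment, and some members within 0.2 of 0. Icam5 and the libraries named as standing apart were chosen after their values were seen. Symbols that the study's tables of changed genes do not pair with an identifier are not analysed here, Penk, Gad2, Slc17a7 and Chrna4 to Chrna7 among them, and neither are 9 symbols on 2 identifiers. Alternatives were no block, DESeq2's size factors and Wald test, other count filters, R1 and R2 of male 5 summed, each sex alone, all libraries in 1 fit, single prep batches and leaving out each pair or, added later, 7 pairs. A few genes that the naming rule picks are not reported here.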

Additional observations from a re-analysis of the deposited data

Results flagged for a closer look

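In 940 genes the regional difference itself differed between males and females (edgeR, region by sex, adjusted p under 0.05), and 3388 genes had an unadjusted p under 0.05. The median size of that term among the 940 was 0.534 on the log2 scale. All 940 had the same sign without male 1 and without the 7 pairs. Both fits reuse pairs on which the 940 were picked, so a kept sign is little support. Of the 940, 538 were still called without male 1 and 423 without the 7 pairs, and the count was 512 to 1282 when 1 pair was left out. The 5 genes with a symbol and the smallest p all had an adjusted p of 0.00219. Their VTA levels were close in both sexes, and their NAc core medians were further apart.

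Ctnnal1, a catenin relative, had a term of -0.76, with NAc core medians of 57.8 CPM in males and 101 CPM in females and VTA medians of 51.2 and 51.6 CPM. Fam214a had a term of -0.49, with NAc core medians of 57.8 and 94.0 CPM and VTA medians of 48.3 and 54.3 CPM. Chrm3, a muscarinic receptor, had a term of 1.17, with NAc core medians of 51.2 and 19.9 CPM and VTA medians of 18.5 and 20.6 CPM. Ccdc88c had a term of -0.66, with NAc core medians of 52.3 and 80.5 CPM and VTA medians of 79.9 and 82.1 CPM. Nuak1, a kinase, had a term of 0.76, with NAc core medians of 69.2 and 40.3 CPM and VTA medians of 44.9 and 44.0 CPM. Over both sexes Nuak1 was not called between the regions, except without female 9, 11, 12 or 14 (-0.26 to -0.24). Sex cannot be told apart from prep batch.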

How the results depend on the processing

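The counts of genes were 12222 to 12475 (adjusted p under 0.05) and 1910 to 2024 (beyond 2-fold) when 1 pair was left out. Beyond 2-fold, a minimum of 10 normalized counts set for all libraries left 1193 of 13386 genes tested. Region by sex gave 512 to 1282 genes when 1 pair was left out (568 without male 1, 520 male 2, 533 male 5, 595 male 7, 602 male 8, 602 female 9, 512 female 10, 582 female 14, 615 female 15), 1443 with DESeq2 and 618 without the 7 pairs, chosen after the data were seen; the cause was not tested. Without the replicate block the counts were 12614, 2028, 905 and, for region by treatment, 0, within 1.5 times in each case.

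Some differences changed sign in 1 sex or prep batch. In males alone these were Hcrt (0.47), Hydin (0.21) and Slc32a1 (0.30), and in females alone Nuak1 (0.15). In batch A they were Slc32a1 (0.42), Drd2 (0.75), Hcrt (0.066), Hydin (0.59), Pifo (0.22), Slc17a8 (0.66), Slc5a7 (0.56) and Trh (0.27). In batch B they were Grm4 (0.048), Hydin (0.12), Slc32a1 (0.032) and Chrna1 (0.038), in batch C Gad1 (0.14), Hcrt (1.03) and Slc32a1 (0.43), in batch J Nr4a2 (0.23) and Nuak1 (0.13), in batch K Nuak1 (0.14), and in batch L Ccdc88c (-0.17), Nr4a2 (0.24) and Nuak1 (0.17). Slc32a1, Chrna1 and Nuak1 were not called over all pairs. The cause was not tested. The stricter filter by construction removes members absent from 1 region, and it changed the sign of the list median for dopamine neuron transcription factors (-0.83, where Nr4a2 alone was left), serotonin receptors (0.38), inward rectifier, SK and HCN channels (0.47), choroid plexus (-0.54) and hypothalamic neurons (-0.064). The fit of males alone changed it for GABA-A receptor subunits (-0.034), serotonin receptors (0.14) and ependymal cells (0.21), and females alone for inward rectifier, SK and HCN channels (0.087). Genes under 1 CPM rest on few counts, and batches of 2 pairs have little precision.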

Other observations

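Genes beyond 2-fold were found at all levels. By the mean level in the higher region, they were 228 of 1548 genes under 1 CPM (14.7%), 679 of 4100 at 1 to 10 CPM (16.6%), 713 of 7813 at 10 to 100 CPM (9.13%) and 372 of 2887 at 100 CPM or more (12.9%). Differences over 4-fold among the 1992 numbered 451 with the higher level in VTA and 463 with the higher level in NAc core.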
